A study of Mus musculus with 10 samples.

Results

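Cell-type marker genes of the marrow outside the T lineage were examined in flow-sorted T-ALL, the T cell form of acute lymphoblastic leukemia, of mice. The set was a fixed list of 39 genes that mark neutrophils, monocytes and macrophages, red cell precursors, B cells, megakaryocytes, and stromal or endothelial cells. For 37 of the 39 a probe set annotated to that gene alone was found, out of 18193 genes named on the array; where a gene had several, the one with the highest mean over all arrays was taken. The neutrophil genes Cebpe and Retnlg were not analysed here. The 37 were 11 neutrophil, 6 monocyte and macrophage, 6 erythroid, 5 B cell, 3 megakaryocyte and 6 stromal and endothelial genes.

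Total RNA of leukemic marrow was profiled on 10 expression arrays, 5 from tamoxifen-treated mice (TAM) and 5 from mice given the corn oil carrier alone (OIL). All leukemias had been driven by ICN1, activated NOTCH1, and both groups carried the ROSCreERT2 transgene and 2 floxed copies of CnB1, so they differed in whether tamoxifen had switched on the Cre recombinase that removes the calcineurin subunit. The cells came from secondary recipient mice, whose marrow was over 50% leukemic, and were sorted on GFP or a comparable marker. In each group the arrays bore the replicate labels 204, 206, F3.1, F3.2 and F3, and an OIL and a TAM array of the same label are called a pair. The meaning of the F3 names is not stated, nor whether each array came from its own mouse.

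Neutrophils and monocytes arise in the marrow from a shared myeloid progenitor, and neutrophils fill their granules in stages: primary granules with elastase, proteinase 3 and myeloperoxidase, later ones with lactoferrin, cathelicidin and lipocalin 2, while the cytosol fills with calprotectin, the complex of S100a8 and S100a9. Red cell precursors switch on heme synthesis under Gata1 and Klf1, B cells assemble the CD79 signalling chains under Pax5, and megakaryocytes store chemokines in platelet granules. These transcripts are abundant in the cells that they mark. In bulk RNA, fewer cells of a type and less RNA per cell cannot be told apart.

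Values are log2 expression values, and a gene was tested when its mean over the 10 arrays lay above 4.59, which left out the dimmest 30% of genes. The sorted cells carried the T lineage programme in every array: all 13 T lineage genes examined (such as Cd3d, Cd3e, Cd5, Ptcra and Bcl11b) passed that limit, and their mean lay between 10.66 and 11.05 in all 10 arrays. None of the 13 was called between TAM and OIL by limma, 4 of the 13 had an unadjusted p under 0.05 (13% of all tested genes did), and with the replicate label as a block Cd2 was lower and Cd28 higher in TAM. Of the probe sets for Ppp3r1, the current symbol of CnB1, the dimmer fell from 5.32 ± 0.58 in OIL to 3.26 ± 0.21 in TAM (SD, n = 5; two-sided exact permutation p = 0.00794, the smallest that 5 against 5 allows) and the brighter from 9.80 ± 0.09 to 9.67 ± 0.04 (exact permutation p = 0.0238). Where these probe sets lie relative to the deleted part was not examined.

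None of the 24 markers that could be tested was called between tamoxifen and oil. The neutrophil genes S100a8, S100a9, Ngp, Camp, Ltf and Lcn2 ranged widely from array to array in both groups, and each of them was at its highest in the TAM F3 array and at its lowest in the OIL 204 array. The markers of red cells, B cells, megakaryocytes and stroma varied less, with Hemgn and Pecam1 the most variable among them.

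To show what lies upstream of the genes that moved together, and of the erythroid gene with the largest difference between the groups, the 250 bases before the RefSeq start of S100a8, S100a9, Ngp, Ltf and Hemgn are given (assembly GRCm38.p6, 5′ to 3′ on the gene's own strand). The S100a8 window is chr3:90668821-90669070 (plus strand) and that of S100a9 is chr3:90695722-90695971 (minus strand). Ngp is at chr9:110419558-110419807 and Ltf at chr9:111019042-111019291 (both plus strand), and Hemgn at chr4:46404184-46404433 (minus strand). Capitals mark matches to the C/EBP motif TTGCNNAA in the neutrophil genes, and to the GATA motif in the form AGATAA or TGATAA in Hemgn; both strands were searched.
S100a8: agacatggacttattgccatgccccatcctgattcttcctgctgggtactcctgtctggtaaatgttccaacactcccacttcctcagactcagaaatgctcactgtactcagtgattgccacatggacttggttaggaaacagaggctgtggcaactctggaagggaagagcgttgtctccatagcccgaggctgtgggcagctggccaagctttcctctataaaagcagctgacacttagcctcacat
S100a9: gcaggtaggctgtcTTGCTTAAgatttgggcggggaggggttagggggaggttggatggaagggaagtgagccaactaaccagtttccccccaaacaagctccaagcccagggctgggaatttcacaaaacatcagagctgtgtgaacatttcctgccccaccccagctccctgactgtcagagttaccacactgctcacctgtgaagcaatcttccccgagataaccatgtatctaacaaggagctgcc
Ngp: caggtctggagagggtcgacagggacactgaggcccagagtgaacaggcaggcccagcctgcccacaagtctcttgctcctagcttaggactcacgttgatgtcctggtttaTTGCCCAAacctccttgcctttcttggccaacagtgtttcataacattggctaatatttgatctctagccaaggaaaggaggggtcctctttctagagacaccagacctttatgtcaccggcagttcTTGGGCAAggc
Ltf: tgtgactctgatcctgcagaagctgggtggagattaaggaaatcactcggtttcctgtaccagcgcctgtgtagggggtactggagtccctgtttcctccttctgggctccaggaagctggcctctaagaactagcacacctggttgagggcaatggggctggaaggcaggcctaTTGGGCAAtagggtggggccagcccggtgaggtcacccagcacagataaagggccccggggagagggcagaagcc
Hemgn: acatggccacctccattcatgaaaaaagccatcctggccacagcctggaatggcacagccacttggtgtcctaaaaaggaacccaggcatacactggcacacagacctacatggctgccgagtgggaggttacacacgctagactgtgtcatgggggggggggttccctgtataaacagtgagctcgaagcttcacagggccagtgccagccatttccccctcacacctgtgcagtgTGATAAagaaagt

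The C/EBP letters stood upstream of 5 of the 11 neutrophil genes (Lcn2, Ltf, Mmp8, Ngp and S100a9), against 9.56% of the 32851 windows of this length in the RefSeq table. A gene counted when any of its windows matched, whereas the windows of the table were counted singly. The shares are therefore not on the same footing. S100a8, which varied most, had no match in its window, S100a9 and Ltf had 1 each and Ngp had 2. The GATA letters stood upstream of 4 of the 5 erythroid genes with an entry (Alas2, Epor, Hemgn and Klf1), against 16.6% of all windows, counted likewise. They also stood upstream of S100a9 and Ltf. The motifs searched do not contain each other, and a match is a description of sequence alone. Of the 37 genes, 27 had an entry in that table.

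The first question was whether marrow lineage genes differed between leukemias of tamoxifen-treated and oil-treated mice. In this design, effects of tamoxifen or of Cre activity cannot be told apart from those of the deletion. Of 12735 genes tested with limma, 60 (0.471%) were called at an adjusted p under 0.05, 38 higher and 22 lower in TAM. Of the 24 markers above the dim limit 0 were called. An unadjusted p under 0.05 was reached by 2 of the 24, Hemgn and Cd68 (8.33%), and by 13% of all tested genes. Taking the label as a block, limma called 431 genes (3.38%) and again 0 of the 24 markers. Unadjusted, 4 markers (Hemgn, Ngp, Lyz2 and Cd68, or 16.7%) then had a p under 0.05, against 22.4% of all genes. When all genes were tested with no limit on dimness, none of the 37 markers was called either. The median difference over the 24 markers was 0.03, with 16 higher in TAM, beside -0.03 over all tested genes, of which 41.0% were higher.

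**Figure D1:**
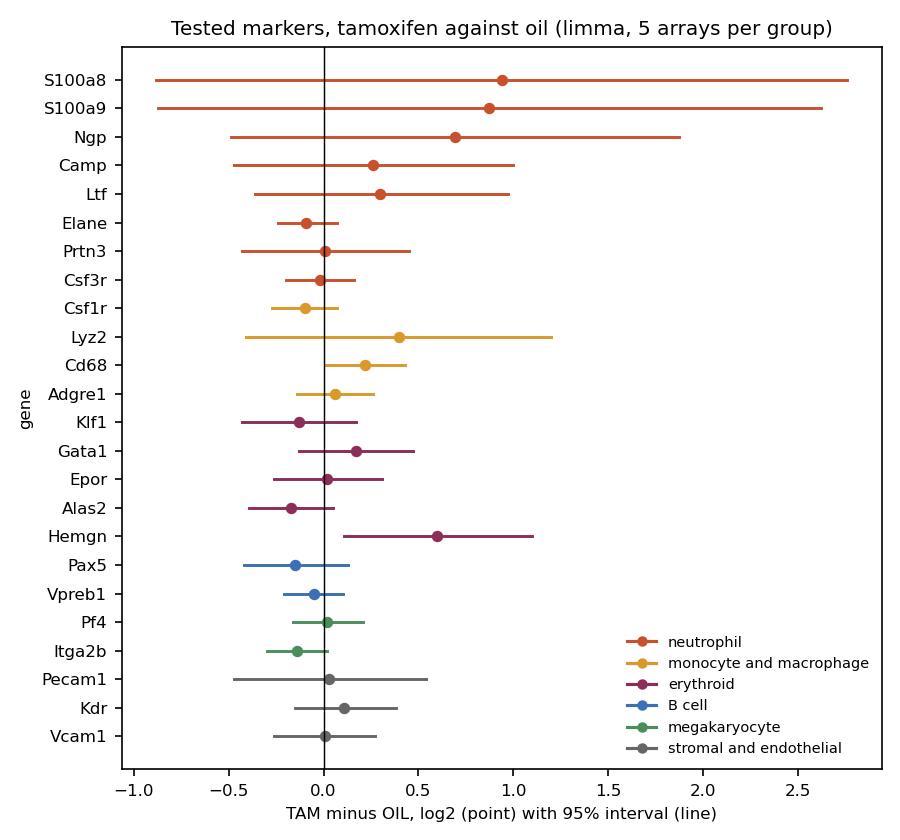
Difference between tamoxifen and oil (TAM minus OIL, log2) for each of the 24 tested markers, coloured by lineage, with the 95% interval of limma's estimate from 5 arrays per group. The intervals are widest for S100a8 and S100a9, which reach from -0.88 to 2.76 and from -0.87 to 2.62, and only those of Hemgn and Cd68 lie wholly above 0.

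The mean over each lineage's markers was taken per array as a description. The neutrophil mean over 5 OIL arrays was 5.42 ± 0.53 (SD) and over 5 TAM arrays 5.72 ± 0.63, and the gap of 0.30 was smaller than the spread within either group. It ran from 4.74 in OIL 204 to 6.70 in TAM F3. The monocyte and macrophage mean, at 4.85 ± 0.13 for OIL and 5.05 ± 0.20 for TAM, was higher in TAM in 5 of 5 pairs. Over 20 other genes of that lineage the mean was 4.81 ± 0.03 in OIL and 4.83 ± 0.13 in TAM, higher in TAM in only 3 of 5 pairs. The B cell mean was lower in TAM, 4.56 ± 0.08 in OIL against 4.40 ± 0.04, and was higher in TAM in 0 of 5 pairs. OIL arrays ran from 4.45 to 4.64 and TAM arrays from 4.37 to 4.45. The erythroid, megakaryocyte and stromal means differed by 0.07, -0.06 and 0.02. Single arrays decided the size of the myeloid differences: that of neutrophils was 0.06 without TAM F3, 0.14 without OIL 204 and 0.49 without OIL F3, and that of monocytes and macrophages was 0.12 without TAM F3. Without both F3 arrays, a choice made after seeing the data, they were 0.25 and 0.15. The B cell difference stayed between -0.18 and -0.14 whichever array was left out, and was -0.1 over the markers above the dim limit alone. The mean of a wider list of 15 other B cell genes did not go the same way. It was 5.45 ± 0.11 in OIL and 5.52 ± 0.08 in TAM, higher in TAM in 4 of 5 pairs. Only 7 of the 15 genes were higher in TAM, however, and their median difference was -0.02, with single genes from -0.39 to 0.80.

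**Figure D2:**
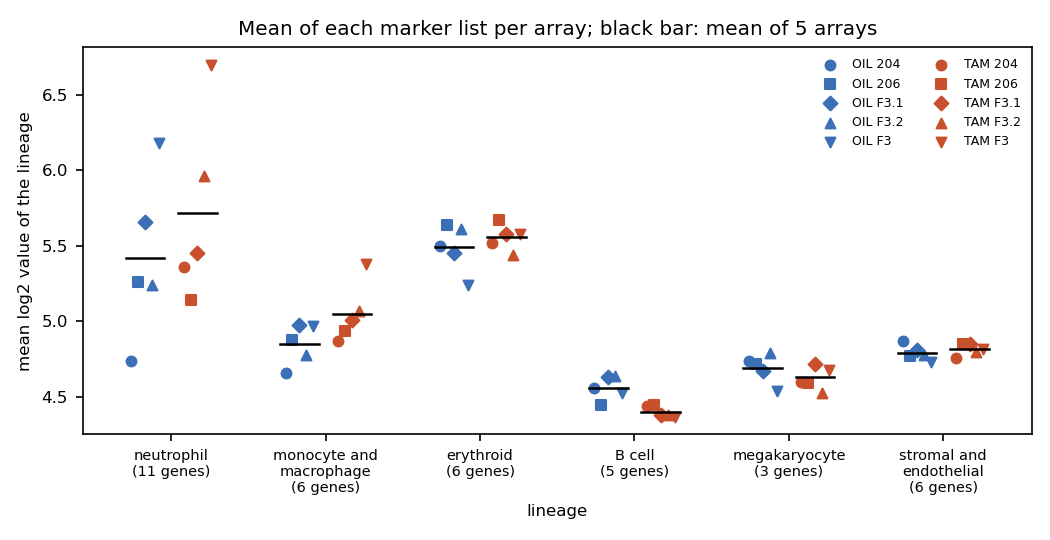
Mean log2 value of each lineage's markers in each of the 10 arrays, with OIL in blue, TAM in red, a symbol for each replicate label and a black bar at the mean of 5 arrays. The neutrophil mean spreads from 4.74 to 6.70 and is highest in the TAM F3 and OIL F3 arrays, whereas the 5 TAM values of the B cell mean lie between 4.37 and 4.45.

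Among the neutrophil genes, S100a8, a subunit of calprotectin, gave 5.06 in OIL 204, 6.94 in OIL 206, 8.27 in OIL F3.1, 6.69 in OIL F3.2 and 9.11 in OIL F3. In the TAM arrays it gave 7.39 in 204, 6.55 in 206, 7.63 in F3.1, 9.11 in F3.2 and 10.07 in F3. The groups overlapped over most of their range, with 3 of 5 pairs higher in TAM, and the F3 array was the highest of its group in both. The TAM minus OIL difference was 0.94 (SE 0.82, 95% interval from -0.88 to 2.76; limma adjusted p = 0.692, and 0.295 with the block). It was 0.40 without OIL 204, 0.46 without TAM F3 and 1.41 without OIL F3. Its SD over the 10 arrays, 1.49, was larger than that of 99.4% of the tested genes.

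S100a9, the partner subunit, went the same way array by array. It was at 4.71 in OIL 204, 6.32 in OIL 206, 7.38 in OIL F3.1, 5.94 in OIL F3.2 and 8.47 in OIL F3. In TAM it was at 6.77 in 204, 5.93 in 206, 6.76 in F3.1, 8.21 in F3.2 and 9.52 in F3. As for S100a8, TAM exceeded OIL in 204, F3.2 and F3 and lay below it in 206 and F3.1. The difference was 0.87 (95% interval from -0.87 to 2.62, limma adjusted p = 0.702), and 0.41 without OIL 204, 0.35 without TAM F3 or 1.35 without OIL F3. With the block the intervals ran from -0.19 to 2.06 for S100a8 and from -0.17 to 1.92 for S100a9. All of these intervals leave room for a sizeable rise and also for a fall, though only for a small one with the block. The arrays thus do not show that calprotectin stayed the same.

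Ngp, a neutrophil granule protein, was at 5.66, 6.40, 6.94, 6.51 and 7.93 in the OIL arrays 204, 206, F3.1, F3.2 and F3. In the TAM arrays of the same labels it was at 6.76, 6.37, 6.85, 7.90 and 9.0. TAM was again higher in the pairs 204, F3.2 and F3, by 1.10, 1.40 and 1.07, while 206 and F3.1 differed by -0.03 and -0.08. On average it was 0.69 (limma adjusted p = 0.648, and 0.149 with the block). Camp, the cathelicidin precursor, ranged from 5.31 in OIL 204 to 7.27 in TAM F3, Ltf, lactoferrin, from 4.70 to 6.60 between the same arrays, and Lcn2, lipocalin 2, from 3.79 to 5.98. Lcn2 was below the dim limit on average and lay above it in OIL F3 (5.12), TAM F3.2 (4.73) and TAM F3 (5.98).

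The primary granule genes varied less. Elane, neutrophil elastase, stayed between 4.62 and 4.89 in all 10 arrays, and 7.34% of the tested genes had a smaller SD. Prtn3, proteinase 3, was between 4.86 and 5.03 in 8 arrays but at 5.55 in OIL F3 and 5.84 in TAM F3. Mpo, myeloperoxidase, had its highest values in the same arrays, 5.19 in OIL F3 and 5.10 in TAM F3, and lay between 4.09 and 4.60 elsewhere. The collagenase Mmp8 ranged from 4.08 to 4.94, and Csf3r, the receptor for granulocyte colony-stimulating factor, only from 4.55 to 4.87. Both were also near that limit (means 4.42 and 4.72), as were Elane and Mpo (4.74 and 4.48). So near to the limit, a narrow range says little. TAM F3 was the highest of the 10 arrays for 8 of the 11 neutrophil genes and OIL F3 for 2, whereas TAM F3 was highest for 7.19% of all tested genes.

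**Figure D3:**
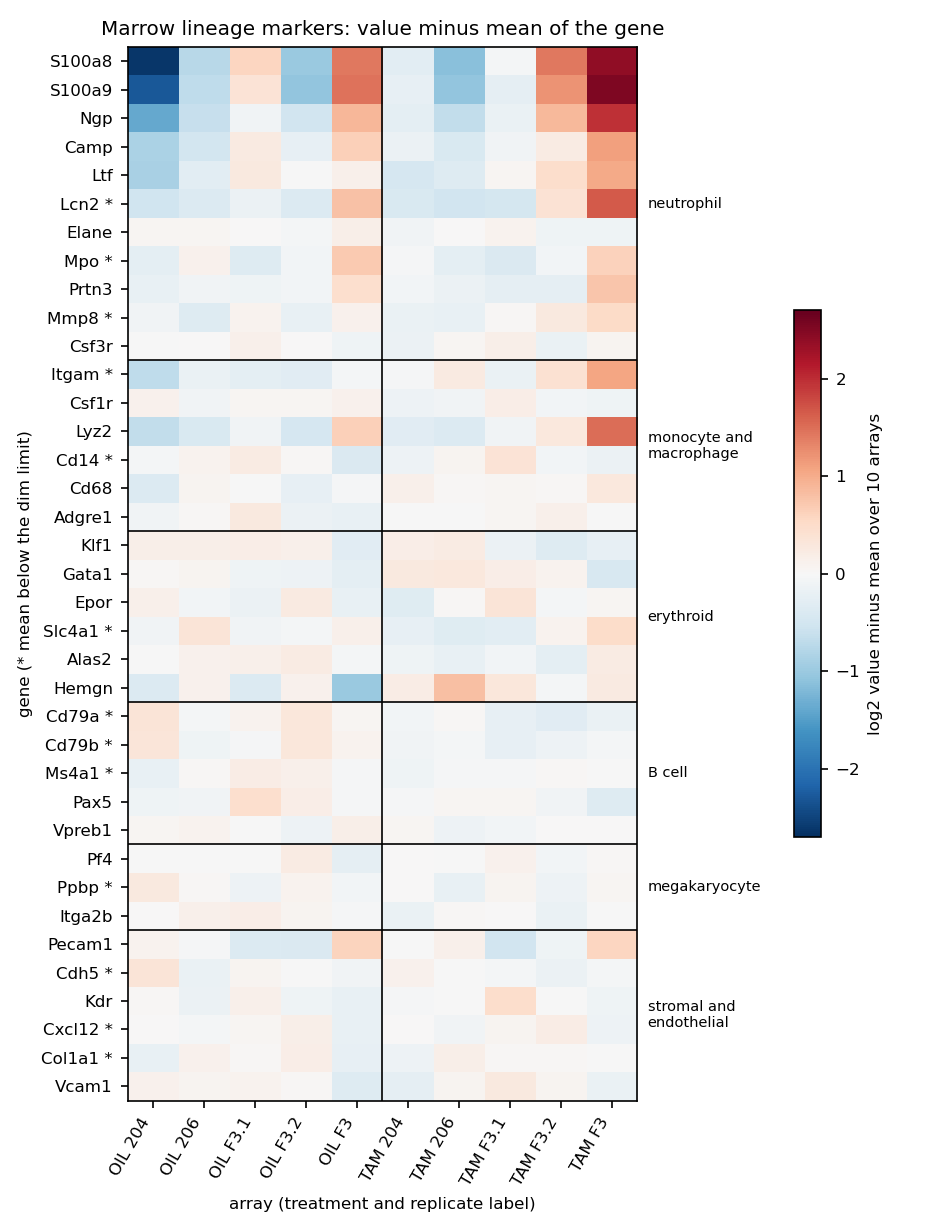
Each of the 37 markers in each of the 10 arrays, drawn as its log2 value minus its own mean over the arrays (red above, blue below), with lineages separated by lines and an asterisk on genes below the dim limit. The top rows, from S100a8 to Lcn2, are blue in OIL 204 and red in OIL F3 and TAM F3, and the lower lineages are pale except for Hemgn, Itgam, Lyz2 and Pecam1.

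The leukemias labelled F3, F3.1 and F3.2 were also compared with 204 and 206, taking the mean of the OIL and TAM array of each label. Of 12735 genes limma called 331 (2.60%), and of the 24 markers 0. Unadjusted, 6 of the 24 markers had a p under 0.05 (25.0%, against 18.4% of all genes), 5 of them neutrophil genes. The higher level in the F3 labels was 1.99 for S100a8 (SE 0.54, adjusted p = 0.129), 1.78 for S100a9 (adjusted p = 0.204), 1.22 for Ngp (adjusted p = 0.235), 0.80 for Camp (adjusted p = 0.201) and 0.82 for Ltf (adjusted p = 0.0737). The erythroid regulator Klf1 was the other, at -0.30 (adjusted p = 0.222).

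For the 5 neutrophil genes the label F3 had the highest mean of the F3 labels. Without it 535 genes (4.20%) were called, and 3 of the 24 markers were called higher in F3.1 and F3.2 than in 204 and 206. They were S100a8 by 1.44 (SE 0.19, limma adjusted p = 0.0383), S100a9 by 1.14 (SE 0.14, adjusted p = 0.037) and Camp by 0.52 (SE 0.07, adjusted p = 0.0425). This rests on 4 label means, and single arrays overlapped: S100a8 was at 6.69 in OIL F3.2 and at 7.39 in TAM 204. Whether F3.1 and F3.2 are separate leukemias is not stated. Their OIL arrays were the most alike of any 2 (SD of difference 0.168), their TAM arrays less so (0.415). If they are not separate, the SEs and p-values of this comparison, with or without F3, understate the spread between leukemias. The calls were not made with the F3 label included, nor without any other label.

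**Figure D4:**
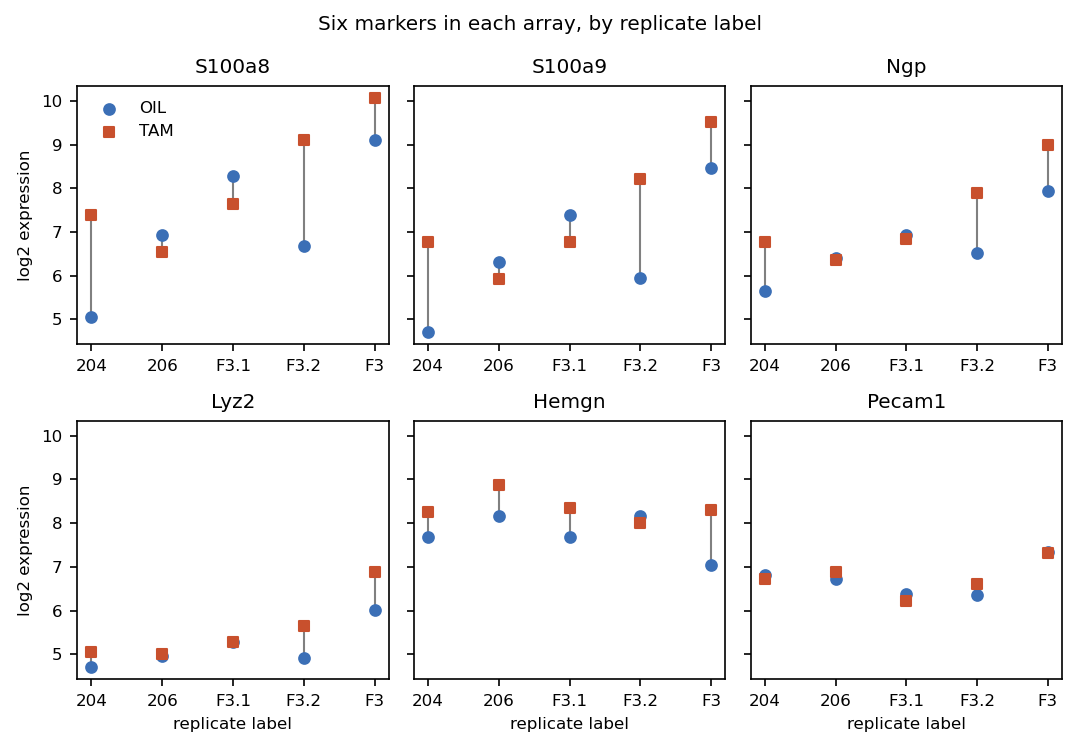
Log2 value of S100a8, S100a9, Ngp, Lyz2, Hemgn and Pecam1 by replicate label, with OIL as blue circles, TAM as red squares and a grey line joining each pair. The first 3 genes have the same pattern of gaps, wide in 204, F3.2 and F3 and narrow or turned in 206 and F3.1, Lyz2 is highest in F3, and Hemgn is lowest in OIL F3.

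The pair of arrays that were most alike overall differed in these genes. OIL F3.1 and OIL F3.2 had the smallest SD of difference over 12735 genes of any 2 arrays, 0.168. Of all those genes S100a8 ranked 3 in absolute difference between them (8.27 against 6.69) and S100a9 ranked 4 (7.38 against 5.94). Chil3, a chitinase-like protein of neutrophils and macrophages, ranked 5 (6.36 against 4.98). Camp ranked 177 and Ngp 223, so the gap was greatest for the calprotectin genes.

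Of the monocyte and macrophage genes, Lyz2, the lysozyme of both macrophages and neutrophils, was high and low in the same arrays as the neutrophil genes. It was at 4.70, 4.96, 5.27, 4.92 and 6.01 in OIL 204, 206, F3.1, F3.2 and F3. It was at 5.06, 5.0, 5.27, 5.65 and 6.87 in the TAM arrays of those labels. Both F3 arrays stood above the other 8, and the difference of 0.40 (95% interval from -0.41 to 1.20) was not called (limma adjusted p = 0.704) and was 0.07 without TAM F3 and 0.61 without OIL F3. Itgam, the CD11b integrin that neutrophils share with monocytes, ran from 3.38 in OIL 204 to 5.12 in TAM F3, below the dim limit in all other arrays, and was higher in TAM in 5 of 5 pairs, by 0.60 on average (limma adjusted p = 0.321 with dim genes included).

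The other genes of this lineage ranged less. Cd68, a lysosomal protein of macrophages, was at 4.72, 5.17, 5.08, 4.88 and 5.07 in the OIL arrays and at 5.24, 5.13, 5.14, 5.13 and 5.38 in the TAM arrays, labels in the same order. The difference was 0.22 (95% interval from 0.01 to 0.43, limma adjusted p = 0.364), and OIL 204 and OIL F3.2 were the low arrays. Csf1r, the receptor for macrophage colony-stimulating factor, lay between 6.10 and 6.42, and its difference of -0.10 had the opposite sign in part of its other probe sets (from -0.06 to 0.24). Adgre1, the F4/80 antigen, lay between 4.77 and 5.23 and the lipopolysaccharide receptor Cd14 between 3.59 and 4.34. The higher monocyte mean in TAM thus came from Itgam, Lyz2 and Cd68.

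Among the erythroid genes only Hemgn, hemogen, a nuclear protein of early blood and red cell precursors, varied by much. It was at 7.69, 8.16, 7.68, 8.17 and 7.04 in OIL 204, 206, F3.1, F3.2 and F3. In TAM it was at 8.25, 8.86, 8.35, 8.0 and 8.29. TAM was higher in 4 of 5 pairs, all but F3.2, and OIL F3 was the lowest array. The means were 7.75 ± 0.46 and 8.35 ± 0.32 (SD, n = 5), and TAM exceeded OIL by 0.60 (SE 0.22, 95% interval from 0.11 to 1.10), which did not pass over all genes (limma adjusted p = 0.283, and 0.106 with the block). The OIL F3 array, the lowest for Hemgn, was the highest OIL array for S100a8.

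The other erythroid genes had smaller differences. Gata1, the erythroid and megakaryocyte transcription factor, was at 4.69, 4.75, 4.55, 4.52 and 4.41 in OIL and at 4.94, 4.96, 4.85, 4.76 and 4.24 in TAM. It was higher in TAM in 4 of 5 pairs by 0.17 on average (limma adjusted p = 0.661), and TAM F3 was the lowest array of all. Klf1 ranged from 5.30 to 5.88 (difference -0.13), Epor, the erythropoietin receptor, from 5.13 to 5.80 (0.02) and Alas2, the first enzyme of erythroid heme synthesis, from 4.52 to 5.01 (-0.17). Slc4a1, the band 3 anion exchanger of the red cell membrane, was just below the dim limit at a mean of 4.53.

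The B cell genes were dim. Pax5, the factor that fixes B cell identity, was at 5.07, 5.09, 5.64, 5.37 and 5.17 in OIL and at 5.17, 5.25, 5.24, 5.09 and 4.85 in TAM. Its difference of -0.15 (limma adjusted p = 0.680) had the opposite sign in its other probe set (0.06). Vpreb1, part of the surrogate light chain of precursor B cells, was at 4.68, 4.73, 4.62, 4.50 and 4.79 in OIL and at 4.68, 4.49, 4.57, 4.65 and 4.65 in TAM, which lies within 0.29 over all arrays. Cd79a and Cd79b, the signalling chains of the B cell receptor, and Ms4a1, the CD20 antigen, were below the dim limit, with values from 4.26 to 4.91, 3.36 to 3.92 and 4.23 to 4.64. The lower B cell mean in TAM came from Cd79a (-0.30), Cd79b (-0.23) and Pax5, and with dim genes included Cd79a had a limma adjusted p of 0.280.

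Megakaryocyte genes were flat, though Pf4 lay just above the dim limit (mean 4.78). Pf4, platelet factor 4, was at 4.76, 4.76, 4.76, 5.0 and 4.53 in OIL and at 4.79, 4.76, 4.89, 4.70 and 4.80 in TAM. Itga2b, the platelet integrin chain αIIb, was at 6.32, 6.46, 6.49, 6.39 and 6.29 in OIL and at 6.13, 6.34, 6.32, 6.13 and 6.31 in TAM. Their differences were 0.02 and -0.14 (limma adjusted p = 0.940 and 0.454). The platelet chemokine precursor Ppbp was the dimmest of all 37 genes, between 2.68 and 3.14.

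Of the stromal and endothelial genes, Pecam1, the CD31 adhesion molecule of endothelium that leukocytes and platelets also carry, was at 6.82, 6.71, 6.37, 6.35 and 7.34 in OIL and at 6.73, 6.88, 6.21, 6.61 and 7.32 in TAM. The arrays of each pair lay within 0.26 of each other, and both F3 arrays were highest. Its difference was 0.03 (limma adjusted p = 0.973). Kdr, the VEGF receptor of endothelial cells, was at 5.85, 5.66, 5.95, 5.69 and 5.61 in OIL and at 5.78, 5.79, 6.29, 5.79 and 5.69 in TAM, a difference of 0.11 (adjusted p = 0.743). Vcam1, an adhesion molecule of stroma and macrophages, ranged from 4.97 to 5.59, and its difference of 0.01 had other signs in its other probe sets (from -0.08 to 0.36). Cdh5, the cadherin of endothelial junctions, the stromal chemokine Cxcl12 and the collagen gene Col1a1 were below the dim limit, with none above 4.09 in any array.

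In all, 13 of the 37 genes were below the dim limit: Lcn2, Mpo, Mmp8, Itgam, Cd14, Slc4a1, Cd79a, Cd79b, Ms4a1, Ppbp, Cdh5, Cxcl12 and Col1a1. The genes nearest to it were Cd79a at 4.57 just below, and Vpreb1 at 4.64 and Gata1 at 4.67 just above. Over all tested genes the median SD over the 10 arrays was 0.18 and 1.92% had an SD above 1. Over the 24 tested markers the median SD was 0.21 and 2 had an SD above 1, S100a8 and S100a9.

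A wider set of genes of the same lineages was read beside the markers. Of 20 other neutrophil genes, 14 were tested and 1 was called between TAM and OIL. That gene was Mmp9, gelatinase B, which neutrophils store but other cells also make. It was at 5.41, 4.92, 5.34, 5.38 and 5.34 in OIL and at 11.01, 8.92, 9.92, 8.59 and 7.58 in TAM, with no overlap, a rise of 3.92 (SE 0.52, limma adjusted p = 0.0159). It was not called when OIL F3.1 (adjusted p = 0.0692) or OIL F3.2 (0.0506) was left out, nor when these were averaged to 1 sample (0.0586). Its level did not go with that of the calprotectin genes: within TAM, Mmp9 was highest in TAM 204, where S100a8 was at 7.39, and lowest in TAM F3, where S100a8 was at 10.07. In OIL, Mmp9 did not exceed 5.41 while S100a8 reached 9.11.

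Chil3, by contrast, was high where S100a8 was high. It was at 4.05, 5.39, 6.36, 4.98 and 7.24 in OIL and at 5.08, 4.39, 4.83, 6.65 and 8.02 in TAM. The difference between the groups was 0.19 (limma adjusted p = 0.949), and as for S100a8 the lowest array was OIL 204 and the highest TAM F3. Chil3 was picked after its values were seen, and most of the 20 other neutrophil genes varied much less. Their median SD over the 10 arrays was 0.19, against 0.53 for the neutrophil markers. TAM F3 was the highest array for 4 of the 20. Fcnb, for example, stayed between 5.46 and 5.73.

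**Figure D5:**
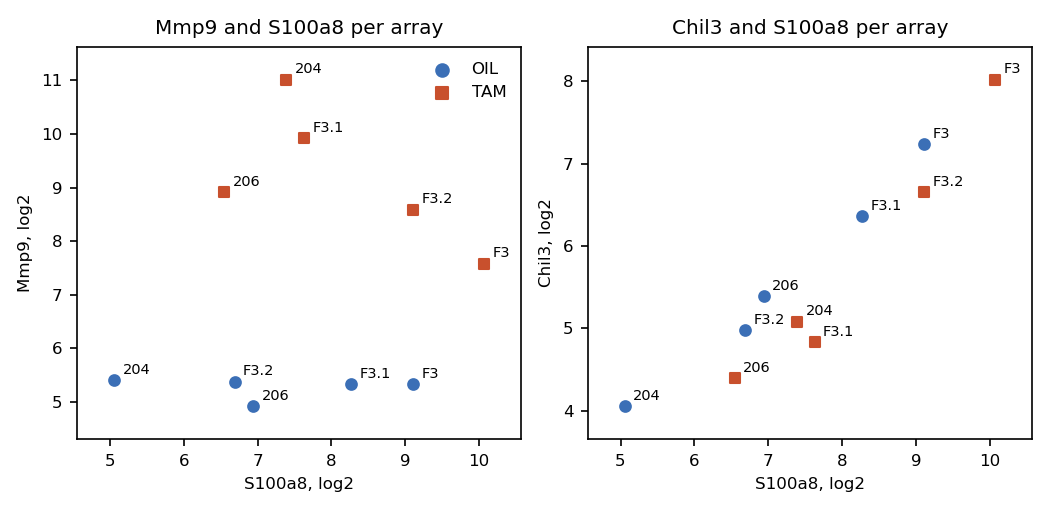
Log2 value of Mmp9 (left) and Chil3 (right) against that of S100a8 in the 10 arrays, OIL as blue circles and TAM as red squares, each point with its replicate label. Mmp9 separates TAM from OIL at any level of S100a8, with OIL at 4.92 to 5.41 and TAM at 7.58 to 11.01, while Chil3 goes with S100a8 in both groups.

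Over the 10 other lists of marrow genes together, limma called 2 of 90 tested genes (2.22%, against 0.471% of all genes), and 12 (13.3%, against 13% of all genes) had an unadjusted p under 0.05. Mmp9, 1 of the 2, had been picked out with earlier results of these data known, so the higher share was partly fixed beforehand. Of 20 other monocyte and macrophage genes 13 were tested, of 9 dendritic cell genes 6, of 15 other B cell genes 7, of 13 other megakaryocyte and platelet genes 10 and of 8 NK cell genes 5, and none was called between TAM and OIL with or without the block. At an unadjusted p under 0.05, limma without the block gave 1 of the 13, 0 of the 6, 1 of the 7, 2 of the 10 and 0 of the 5. Of 17 other erythroid genes 10 were tested, and Fech, the last enzyme of heme synthesis, was lower in TAM (8.93 ± 0.09 in OIL, 8.49 ± 0.07 in TAM, n = 5; limma adjusted p = 0.0269). That call was lost without OIL 204, OIL 206, OIL F3.1, OIL F3.2, TAM 206, TAM F3.1 or TAM F3, each left out alone, with adjusted p between 0.0506 and 0.0869. It was also lost with probe sets averaged (-0.36, adjusted p = 0.0649), with OIL F3.1 and OIL F3.2 averaged (0.0772) and without both F3 arrays (0.0603).

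With the replicate label as a block, limma called 7 of the 90 genes (7.78%, against 3.38% of all genes): Mmp9, Fech and 5 more. Mmp9 and 4 of those 5 (Cdh1, Fabp4, Col4a2 and Hpgds) had been picked out with earlier results of these data known, so this share too was partly fixed beforehand. Cdh1, E-cadherin, also made by erythroid precursors, was higher in TAM by 2.91 (limma adjusted p = 0.0171 with the block, 0.0617 without). Fabp4, a fatty acid carrier of adipocytes, endothelium and macrophages, was higher by 3.38 (0.00627 and 0.0575), and Col4a2, a basement membrane collagen, by 2.61 (0.0412 and 0.106). Hpgds, the prostaglandin D synthase of mast cells, was higher by 1.98 (0.0479 and 0.233) and the erythroid iron carrier Slc25a37 by 0.43 (0.0371 and 0.110). Each was higher in 5 of 5 pairs. The tested markers of the erythroid and stromal and endothelial lineages were not called with the block. Of these, Hemgn and Gata1 differed by 0.60 and 0.17, each higher in TAM in 4 of 5 pairs, Klf1, Epor and Alas2 by -0.13, 0.02 and -0.17, and Pecam1, Kdr and Vcam1 by 0.03, 0.11 and 0.01.

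Between the F3 labels and 204 and 206, limma called 4 of the 90 genes of the wider lists (4.44%, against 2.60% of all genes). The B cell inhibitory receptor Cd22 was higher in the F3 labels by 0.68 (adjusted p = 0.0286). This lay mostly in the TAM arrays, at 6.91, 6.92 and 7.19 against 5.75 and 5.88, since the OIL arrays were at 6.22, 5.86 and 5.64 against 5.82 and 5.65; on OIL arrays alone the gap was 0.17 (adjusted p = 0.720). Cpa3, mast cell carboxypeptidase, was lower (-1.15, adjusted p = 0.0308), as were Ncf1, a subunit of the phagocyte oxidase (-0.70, adjusted p = 0.0391), and Tbx21, the T-bet factor of NK and T cells (-1.37, adjusted p = 0.0332). With the label as a random block Cd22 and Cpa3 were not called (adjusted p = 0.155 and 0.135), whereas Ncf1 and Tbx21 were (0.0266 and 0.00855). None of the 4 kept its call under each label left out: without 204, for example, the adjusted p was 0.135 for Cd22, 0.0840 for Cpa3, 0.188 for Ncf1 and 0.0796 for Tbx21. Ncf1 differed in the direction opposite to S100a8 and S100a9, and the B cell markers Pax5 and Vpreb1 differed by 0.08 and -0.02 in that comparison.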

How the data were processed

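RNA of sorted leukemic marrow cells was measured on 10 arrays. The authors deposited log2 values from RMA (named in the submitters' processing notes, with no version), which normalizes arrays by quantiles and so removes shifts common to all genes. Arrays have no read depth, and their number, 5 per group, limits the precision.

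Of 45101 probe sets, 34958 had 1 gene symbol in the platform annotation, 932 had several and 9211 were not listed; 34754 were matched by Entrez ID to RefSeq names. Each of 18193 genes was represented by the probe set with the highest mean, and the dimmest 30% were left out (12735 tested). TAM and OIL were compared with limma 3.58.1 (lmFit, eBayes) in R 4.3.3, Benjamini-Hochberg over all tested genes, threshold 0.05; the code was tested on simulated data. Python 3.11.15, pandas 2.3.3 and matplotlib 3.10.9 made tables and figures. Alternatives were the block, the dim limit (none or 50%), trended eBayes, averaged probe sets, median centring, averaging OIL F3.1 with OIL F3.2, and leaving out arrays.

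The replicate labels occur in both groups once a number that follows F3.1 and F3.2 is dropped. Deviations from the group mean were correlated within each label, over genes, at 0.76 (204), 0.75 (206), 0.58 (F3.1), 0.18 (F3.2) and 0.80 (F3). All exceed 0.1, so the labels were taken as pairs in the descriptions and in the block fit, whereas the main TAM against OIL fit did not use them. However, 3 of the 10 arrays (TAM F3.1 and both F3.2 arrays) were closest to an array of another label. P-values therefore reflect the spread among these arrays alone, which may be technical.

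The markers and lists were chosen with earlier results of these data known. Named with every value were the 2 markers per lineage with the largest SD among those tested, called genes of the lists, and Mmp9, Fabp4, Cdh1, Col4a2 and Hpgds; Ngp, Camp, Prtn3 and Chil3 were described further after their values were seen.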

Additional observations from a re-analysis of the deposited data

Results flagged for a closer look

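In each group of 5 arrays, the highest or lowest array was set against the rest, and it stood apart when its gap to the next array was over 0.71 of the group's range. This was so in 12 of 118 groups checked, and chance gives about 1 in 20. Among the markers, Prtn3 was highest in both F3 arrays: OIL F3 was at 5.55 against 4.90 to 5.02 in the other OIL arrays, and TAM F3 at 5.84 against 4.86 to 5.03. Klf1 was lowest in OIL F3 (5.35, others 5.79 to 5.83), as was Vcam1 (4.97, others 5.35 to 5.43), and Gata1 was lowest in TAM F3 (4.24, others 4.76 to 4.96). Csf1r was highest in TAM F3.1 (6.42, others 6.10 to 6.17), and so was Kdr (6.29, others 5.69 to 5.79). Of the other genes, Mmp9 was lowest in OIL 206 (4.92, others 5.34 to 5.41) and Fabp4 was lowest in OIL F3 (5.59, others 7.22 to 7.85). The basophil protease Mcpt8 was highest in OIL F3 (6.98, others 3.69 to 4.20) and in TAM F3 (5.07, others 3.94 to 4.25), and Jchain, the joining chain of antibodies, in OIL F3 (5.39, others 3.55 to 3.68).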

How the results depend on the processing

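No marker was called between TAM and OIL under any alternative run, and no lineage mean difference moved by more than the spread within groups. For neutrophils that spread (0.58) exceeded the difference itself (0.30), so the rule says little there. The same held for the erythroid (0.13 against 0.07), megakaryocyte (0.09 against -0.06) and stromal and endothelial means (0.05 against 0.02). The neutrophil difference fell to 0.06 without TAM F3. The count of genes called in that comparison was 60, and became 431 with the replicate block, 26 with probe sets averaged, 10 with OIL F3.1 and OIL F3.2 averaged and 37 without both F3 arrays (chosen after seeing the data). Leaving out 1 array gave 8 (without OIL F3.1) to 54 (without OIL F3), with 19 without OIL 204, 10 without OIL F3.2, 36 without TAM 204, 28 without TAM 206 and 24 without TAM F3.1. The difference of Pecam1 turned to -0.06 with OIL F3.1 and OIL F3.2 averaged and ranged from -0.11 to 0.19 with 1 array left out (-0.05 without OIL F3.1), and that of Pf4 turned to -0.03 without both F3 arrays and ranged from -0.03 to 0.08 with 1 left out (0.03 without TAM 206); neither was called. Uncalled differences of Gata1 (0.30 without TAM F3), Pax5 (-0.05 without OIL F3.1, -0.04 with probe sets averaged) and Kdr (0.01 without TAM F3.1) also moved by over 1.5 times. For the F3 labels against 204 and 206 the count of 331 became 87 on TAM arrays alone and 835 with the label as a random block, and 107 to 535 with 1 label left out, with 107 without F3.1, 111 without F3.2 and 141 without 204; 0 to 3 markers were then called, the 3 being S100a8, S100a9 and Camp without F3. The causes were not tested. The 13 markers below the dim limit were tested only without that limit.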
